A study of Mus musculus with 4 samples.

Results

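The 10 genes examined here are expressed by macrophages and dendritic cells: Csf1r, Adgre1, Cd68, Lyz2, Mrc1, Cx3cr1, Itgam, Itgax, Cd14 and Tyrobp. They were chosen by name, as the rows of these symbols among the 54532 genes counted in whole kidney, and all 10 had counts in every library and passed the filter on low counts. The kidneys came from female C57BL/6J mice, either wild type (WT) or lacking Zbp1, a sensor of Z-form nucleic acids, through a CRISPR-Cas9 deletion that spans several exons (Zbp1-KO). There were 2 libraries of each genotype. Every mouse, the WT controls included, had received 500 µL of pristane, an alkane oil used to bring on lupus-like disease in mice, intraperitoneally when 8 weeks old, and its kidney was collected 8 months afterwards. No library from a mouse without pristane was analysed here, so the comparison concerns genotype under pristane only. The WT mice were purchased and are not described as littermates of the Zbp1-KO mice, and the labels do not say whether a library holds 1 animal.

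Macrophages and dendritic cells form a network between the kidney tubules, where they take up debris and antigen and call in other immune cells. Macrophages depend on the receptor Csf1r, whose ligands are Csf1 and Il34, and both lineages read their surroundings through integrins, pattern receptors and adaptor proteins that pass signals into the cell. In lupus nephritis such cells gather around glomeruli and tubules. In RNA from whole kidney, fewer cells of a type and less RNA per cell cannot be told apart.

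Total counts ran from 9878776 to 12921925 per library, of which mitochondrially encoded genes took 49.5% to 61.5%. Values are given in CPM, a gene's share of the library's counts on a common scale, with the library size adjusted by the trimmed mean of M-values (TMM), and differences as the log2 fold change of Zbp1-KO over WT with its standard error (SE). A count of 0 allows up to 0.221 to 0.323 CPM, depending on the library, where 3 counts were taken as the limit. The targeted gene, Zbp1, was low under Zbp1-KO, where 18 and 0 counts were listed, and higher under WT, where 94 and 125 were listed. On the log2 scale Zbp1 differed by −3.64 ± 0.89 (SE), at an edgeR quasi-likelihood p of 0.00153 before and 0.999 after adjustment, so that the deleted gene itself was not called. It was called in 5 of 14 settings, and a gene that was not called here may still differ. Markers of kidney tubules and podocytes were measured in every library.

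None of the 10 genes was called between the genotypes. In the edgeR quasi-likelihood test, adjusted over all 14908 genes tested, 0 of the 10 passed an adjusted p of 0.05, against 0.0134% of all genes (2 of 14908). At an unadjusted p under 0.05, 1 of the 10 was higher in Zbp1-KO, Cx3cr1, and 0 were lower, and 1.91% of all genes tested were higher at that level. The median log2 fold change of the 10 genes was 0.18, with 7 genes above 0 and 3 below, and that of all genes tested was −0.01. Both Zbp1-KO libraries exceeded both WT libraries for 2 of the 10 genes, Cx3cr1 and Adgre1, and for 16.0% of all genes. For 0 of the 10 did both fall below, as 16.3% of all genes did. In the remaining 8 genes the genotypes overlapped.

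**Figure D1:**
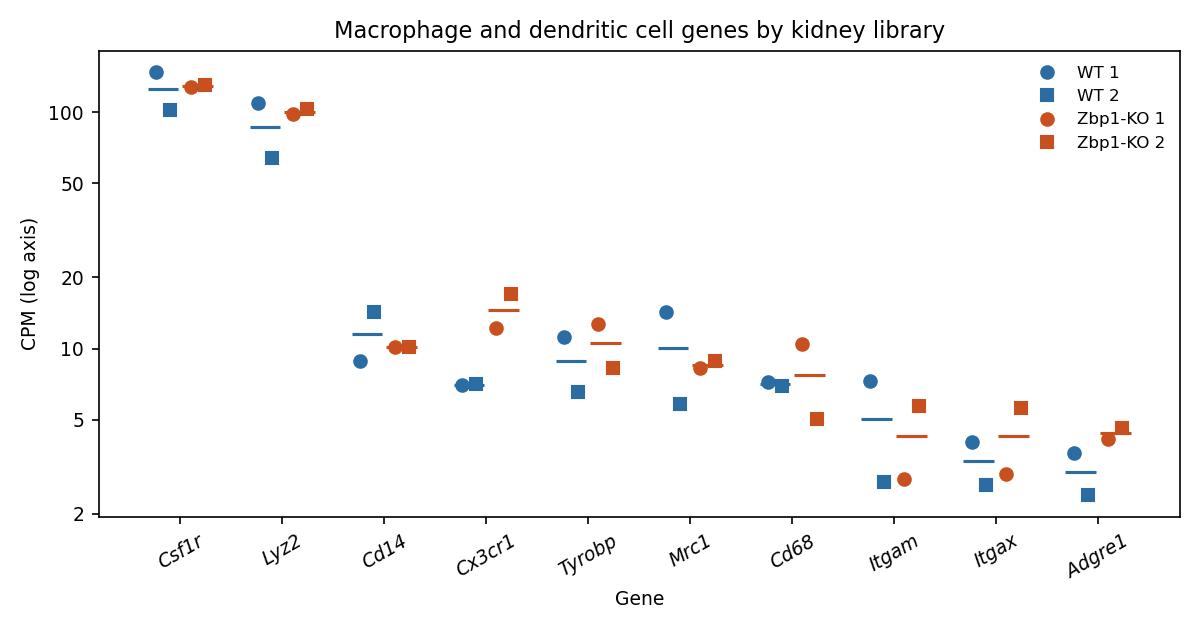
CPM (log axis) of each of the 10 genes in the 4 kidney libraries, with circles for replicate 1, squares for replicate 2 and horizontal bars for genotype means. Only for Cx3cr1 and Adgre1 do both Zbp1-KO points lie above both WT points; for Lyz2 and Csf1r the Zbp1-KO points lie between the WT points.

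The genes differed far more from each other than between genotypes. Per kilobase of annotated exon, the level was highest for Lyz2, the lysozyme of myeloid cells, with 71.1 ± 15.3 CPM per kilobase (SD over the 4 libraries). Csf1r followed with 22.0 ± 3.29 CPM per kilobase, and Tyrobp with 14.5 ± 4.17. The ranges of Lyz2 and Csf1r over the libraries did not overlap, whereas those of Csf1r and Tyrobp did, although Csf1r was above Tyrobp in 4 of 4 libraries. Cd14 and Cd68, at 6.27 ± 1.37 and 5.91 ± 1.79 CPM per kilobase, could not be ordered, since each exceeded the other in 2 libraries. The remaining 5 genes lay between 0.792 and 2.41 CPM per kilobase in the order Cx3cr1, Mrc1, Adgre1, Itgam and Itgax, and the range of each overlapped that of the next. The place of Itgam is uncertain, because it shares 3450 of its 5024 exon bases with Gm49368. Reads of both genes could be left out of the counting. The receptor Csf1r thus stood well above Adgre1, which encodes the macrophage surface protein F4/80 and had 1.14 ± 0.296 CPM per kilobase.

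Cx3cr1, the receptor for the chemokine Cx3cl1 that keeps monocytes and resident macrophages in tissue, showed the largest difference of the 10. It measured 7.00 and 7.10 CPM in WT against 12.2 and 17.0 CPM in Zbp1-KO, from 87, 83, 166 and 158 counts. The WT values were nearly equal, and both Zbp1-KO values were well above them. Means were 7.05 ± 0.0721 CPM for WT and 14.6 ± 3.38 CPM for Zbp1-KO (SD, 2 libraries each). The small WT SD is not a measure of precision, because counting error alone was wider. Exact 95% Poisson intervals were 69.7 to 107 for the 87 counts and 66.1 to 103 for the 83 counts in WT. The log2 fold change was 1.05 ± 0.34 (SE), with a 95% interval of 0.31 to 1.79, an edgeR quasi-likelihood p of 0.00950 and an adjusted p of 0.999. By that p it ranked 87 among all 14908 genes. With 1 library left out in turn, the log2 fold change stayed between 0.79 and 1.26. The lowest value was that without Zbp1-KO 2, where the unadjusted edgeR p was 0.0573. Over all alternatives the adjusted p ran from 0.362 to 1.00 in edgeR, DESeq2 and limma-voom, and Cx3cr1 was called in 0 of 14 settings. Its ligand Cx3cl1, made by tubule and endothelial cells, had 76.1 and 84.7 CPM in WT against 79.4 and 78.9 CPM in Zbp1-KO, and a log2 fold change of −0.02 ± 0.18 (SE).

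Cx3cr1 (ENSMUSG00000052336) lies on chromosome 9 from 119901616 to 120069879 on the minus strand (GENCODE M21, GRCm38). Several genes lie within this span, and 1 of them, the antisense gene Gm33858, shares 78 exon bases with it and had 0 counts in every library. To show the regulatory sequence next to the genes, the 250 bases before the start site were taken from RefSeq (GRCm38.p6), which gave a window for 6 of the 10 genes. The RefSeq start site can differ from that of GENCODE. The Cx3cr1 window lies wholly inside the GENCODE span given above, so it depends on the RefSeq start site. The windows were searched on both strands for GAGGAA, the core recognised by PU.1, the myeloid factor encoded by Spi1. The motif was found in 3 of these 6 windows, those of Mrc1, Itgam and Cd68, and in 23.3% of all 32851 windows of that length. Windows are printed 5′ to 3′ on the strand of the gene, that of Cx3cr1 as the gene with the largest difference and those of Itgam and Mrc1 as the windows with more than 1 match, which capitals mark.
Cx3cr1, chr9:120068297-120068546, minus strand: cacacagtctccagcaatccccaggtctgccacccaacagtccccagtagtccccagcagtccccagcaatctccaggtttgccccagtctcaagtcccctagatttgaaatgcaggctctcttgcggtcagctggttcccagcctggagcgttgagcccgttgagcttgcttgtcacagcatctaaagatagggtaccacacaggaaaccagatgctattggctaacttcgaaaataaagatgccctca
Itgam, chr7:128062390-128062639, plus strand: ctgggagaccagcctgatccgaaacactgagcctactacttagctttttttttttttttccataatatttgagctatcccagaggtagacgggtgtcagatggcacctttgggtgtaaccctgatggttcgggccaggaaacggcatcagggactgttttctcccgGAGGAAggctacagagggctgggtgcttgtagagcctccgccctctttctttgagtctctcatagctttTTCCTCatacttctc
Mrc1, chr2:14229164-14229413, plus strand: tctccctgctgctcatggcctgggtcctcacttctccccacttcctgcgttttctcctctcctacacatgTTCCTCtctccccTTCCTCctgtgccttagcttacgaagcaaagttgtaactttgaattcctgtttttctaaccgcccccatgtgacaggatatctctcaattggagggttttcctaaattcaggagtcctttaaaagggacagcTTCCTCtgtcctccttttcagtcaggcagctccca
A match in capitals reads as the reverse complement where it lies on the other strand. In Itgam the matches began 84 and 15 bases before the start site, and in Mrc1 180, 167 and 35 bases before it. A match is a description of the letters and not a binding site.

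Csf1r, on which macrophage survival depends, had 148 and 102 CPM in WT against 128 and 131 CPM in Zbp1-KO. The WT libraries held both the highest and the lowest value, with the Zbp1-KO values between them. The log2 fold change was 0.05 ± 0.21 (SE), and its 95% interval of −0.40 to 0.50 was the narrowest of the 10. Csf1r shares 873 exon bases with Hmgxb3 on the opposite strand, and the strand setting of the counting was not given in the sources used here. Hmgxb3 had 36 to 176 counts in a library, against 1191 to 1839 for Csf1r.

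Among the genes of phagocytes and their lysosomes, Adgre1 had 3.62 and 2.39 CPM in WT against 4.13 and 4.63 CPM in Zbp1-KO. Both Zbp1-KO values were higher, but they rest on few counts, and the lowest, 28 counts in WT 2, has an exact 95% Poisson interval of 18.6 to 40.5 that covers counting error only. Adgre1 had a log2 fold change of 0.54 ± 0.61 (SE), with a 95% interval of −0.79 to 1.87. Cd68, a lysosomal glycoprotein, had 7.24 and 6.93 CPM in WT against 10.5 and 5.06 CPM in Zbp1-KO, so that the Zbp1-KO libraries lay on either side of WT. Its log2 fold change was 0.14 ± 0.45 (SE), and it was −0.49 without Zbp1-KO 1. Mrc1, the mannose receptor CD206, had 14.3 and 5.82 CPM in WT against 8.26 and 8.83 CPM in Zbp1-KO. Here the spread lay in WT, and the log2 fold change was −0.24 ± 0.44 (SE) with all libraries and 0.55 without WT 1.

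Lyz2 had 109 and 64.1 CPM in WT against 97.9 and 103 CPM in Zbp1-KO. As for Csf1r, the Zbp1-KO values lay between the WT values. On the log2 scale the difference was 0.21 ± 0.24 (SE), with a 95% interval of −0.31 to 0.73. Lyz2 has a close copy, Lyz1, the lysozyme of Paneth cells, with 10 and 5 counts in WT against 0 in each Zbp1-KO library, and the reads of a pair could be split between the copies. The longest stretch identical in the 2 transcripts was 118 bases, and 0 of the 1167 windows of 150 bases in the Lyz2 transcript, the read length, occurred unchanged in Lyz1.

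Itgam and Itgax encode the integrin chains CD11b and CD11c, the classical surface markers of myeloid cells and of dendritic cells, and lie next to each other on chromosome 7, at 128062640 to 128118491 and 128129547 to 128150657 on the plus strand (GRCm38). Itgam had 7.32 and 2.74 CPM in WT against 2.80 and 5.71 CPM in Zbp1-KO. WT 1 and Zbp1-KO 2 were thus high and the other two low, and replicates differed by 2.67 times in WT and 2.04 times in Zbp1-KO. Its log2 fold change of −0.25 ± 0.63 (SE) had a 95% interval of −1.63 to 1.12. Gm49368, annotated on the same strand, shares 3450 exon bases with Itgam and had 0 counts in every library, so the level of Itgam is uncertain where reads of both genes could be left out of the counting. Itgax had 4.02 and 2.65 CPM in WT against 2.95 and 5.60 CPM in Zbp1-KO, with the same pair of libraries high. The log2 fold change was 0.35 ± 0.63 (SE), with a 95% interval of −1.03 to 1.72. Itgb2, the chain with which both integrins pair, had 6.59 and 7.87 CPM in WT against 6.71 and 10.1 CPM in Zbp1-KO, with overlapping genotypes.

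Cd14 and Tyrobp pass signals from outside the cell. Cd14, the co-receptor that hands bacterial lipopolysaccharide to Tlr4, had 8.85 and 14.3 CPM in WT against 10.2 and 10.1 CPM in Zbp1-KO, so that the Zbp1-KO values again lay between those of WT. Its log2 fold change was −0.19 ± 0.35 (SE). Tlr4 itself had 2.01 and 3.08 CPM in WT against 6.64 and 3.99 CPM in Zbp1-KO, with a log2 fold change of 1.07 ± 0.61 (SE), and was not called (edgeR adjusted p = 0.999). Ly96, which completes this receptor complex, had 2.65 and 5.39 CPM in WT against 6.78 and 1.51 CPM in Zbp1-KO. Tyrobp, also called DAP12, is an adaptor through which receptors such as Trem2 signal. It had 11.2 and 6.59 CPM in WT against 12.8 and 8.29 CPM in Zbp1-KO, and within each genotype replicate 1 was the higher. Zbp1-KO over WT gave a log2 fold change of 0.25 ± 0.39 (SE). The adaptor Fcer1g, which serves Fc receptors, had 22.0 and 18.6 CPM in WT against 29.7 and 26.8 CPM in Zbp1-KO, with a log2 fold change of 0.48 ± 0.24 (SE). Trem2 had 5.15 and 3.59 CPM in WT against 2.36 and 3.23 CPM in Zbp1-KO, with a log2 fold change of −0.65 ± 0.63 (SE). Neither was called (edgeR adjusted p = 0.999 for both).

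**Figure D2:**
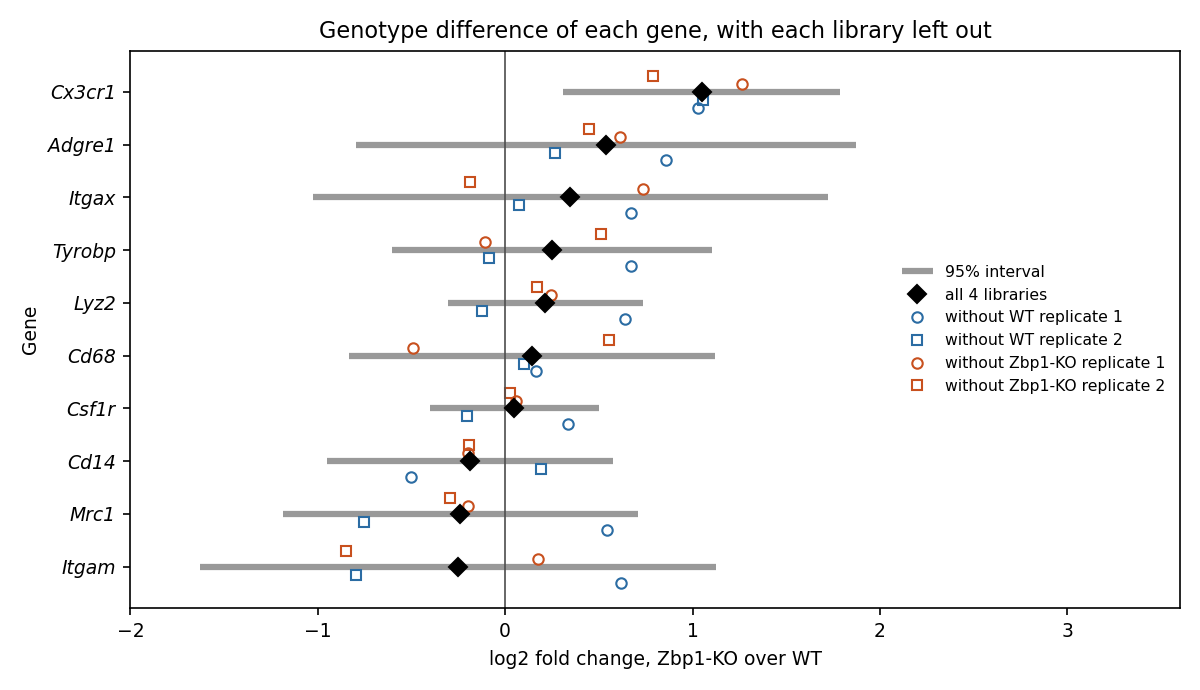
Log2 fold change of Zbp1-KO over WT for each of the 10 genes, with black diamonds for all 4 libraries, grey bars for the 95% interval and open symbols for the fits with 1 library left out. Only the interval of Cx3cr1 lies wholly above 0, and with a library left out 8 of the 10 genes reach the other side of 0.

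For most of the 10 genes, as for most of all genes tested, the differences between replicates were as large as those between genotypes. The larger of the 2 replicate ratios was at least the ratio of the genotype means for 9 of the 10 genes, all but Cx3cr1, and for 78.1% of all genes tested. The spread was not even over the libraries. WT 2 held the lowest value for 7 of the 10 genes, whereas it held the lowest value for 23.6% of all genes. WT 1 exceeded WT 2 for 8 of the 10 genes and for 50.2% of all genes, by 2.46 times for Mrc1, 1.70 times for Lyz2 and 1.45 times for Csf1r. Among tested genes of other lists, WT 1 exceeded WT 2 for 13 of 18 resident macrophage and 14 of 19 phagocytosis genes. It did so for 7 of 16 conventional dendritic cell genes and 0 of 10 endothelium genes. Red blood cell and neutrophil lists showed the same order in WT as the 10 genes. The 6 red blood cell genes summed to 2585 CPM in WT 1 and 841 CPM in WT 2, against 852 and 2148 CPM in Zbp1-KO, and the 16 neutrophil genes to 37.2 and 8.90 CPM in WT against 12.8 and 16.8 CPM in Zbp1-KO. Their part in the values of the 10 genes was not tested. Among neutrophil markers, S100a8 had 137 counts in WT 1 and 6 in WT 2, against 55 and 30 in Zbp1-KO, and Ly6g, Mpo and Elane had 0 counts in all 4 libraries.

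To compare the genes free of library scaling, counts were set against those of Csf1r in the same library. Per 100 Csf1r counts, Cx3cr1 had 4.73 and 6.97 counts in WT against 9.59 and 13.01 in Zbp1-KO. Adgre1 had 2.45 and 2.35 in WT against 3.24 and 3.54 in Zbp1-KO. Both genes, and Lyz2 as well, were thus higher relative to Csf1r in each Zbp1-KO library than in either WT library. The share of all genes that were so on this scale was not computed. On the CPM scale it was 16.0%. Lyz2 was the steadiest, with 73.7 and 62.9 in WT against 76.7 and 78.7 in Zbp1-KO, and its highest value was 1.25 times its lowest. The groups overlapped for the other 6 genes, whose highest value was 1.58 to 2.34 times the lowest. These ratios are given without a test.

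**Figure D3:**
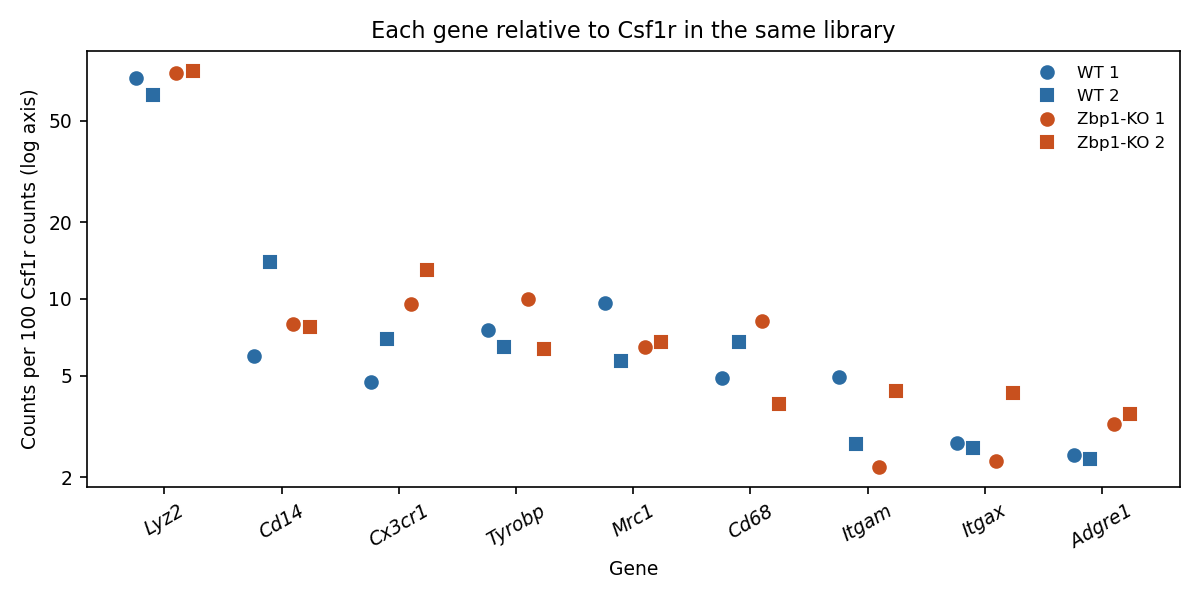
Counts of each gene per 100 counts of Csf1r in the same library (log axis), with circles for replicate 1 and squares for replicate 2. Cx3cr1, Adgre1 and, by a narrow margin, Lyz2 have both Zbp1-KO points above both WT points.

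Other genes of these lineages were then examined in 8 lists written by hand, which held 130 genes besides the 10, of which 110 were tested. Of these, 0 were called higher and 0 lower by the edgeR quasi-likelihood test, while an unadjusted p under 0.05 was reached by 3 in the higher and by 3 in the lower direction, as it was by 1.91% and 1.97% of all genes. Their median log2 fold change was 0.07. Both Zbp1-KO libraries exceeded both WT libraries for 22 of the 110 genes and fell below both for 16, against 16.0% and 16.3% of all genes. By list these were 1 and 0 of 7 growth factors and receptors, 4 and 3 of 16 partners and 1 and 1 of 19 phagocytosis genes. Monocyte genes gave 4 and 3 of 14. Dendritic cell genes gave 5 and 1 of 16 (conventional) and 2 and 1 of 7 (plasmacytoid). Transcription factors and resident macrophages follow below.

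Of the 7 tested growth factors and their receptors, Csf1 and Il34, the ligands of Csf1r, had log2 fold changes of −0.12 ± 0.24 (SE) and −0.13 ± 0.45 (SE). Csf1 measured 24.2 and 23.0 CPM in WT against 20.1 and 23.4 CPM in Zbp1-KO. Flt3l, the growth factor of dendritic cells, had 6.03 and 10.4 CPM in WT against 11.9 and 18.0 CPM in Zbp1-KO, without overlap of the genotypes. The difference was 0.85 ± 0.37 on the log2 scale (SE), at an edgeR p of 0.0411 before and 0.999 after adjustment. It was 0.50 without WT 1 and 0.52 without Zbp1-KO 2, with unadjusted edgeR p of 0.273 and 0.215, and 1.30 without WT 2. Its receptor Flt3 had at most 9 counts in a library and was not tested.

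Of the 14 tested transcription factors of these lineages, 6 were lower in both Zbp1-KO libraries than in either WT library and 0 were higher in both, as 16.3% and 16.0% of all genes were. The list median was −0.10, and with a library left out it ran from −0.19 (without Zbp1-KO 1) to −0.62 (without Zbp1-KO 2). These medians are not over the same genes, because leaving a library out can change which genes of a list are tested. Here 15 genes rather than 14 were tested without WT 2, Zbp1-KO 1 or Zbp1-KO 2. Spi1 had 10.6 and 10.9 CPM in WT against 6.93 and 6.36 CPM in Zbp1-KO. The replicates were close, and the log2 fold change was −0.69 ± 0.36 (SE; edgeR adjusted p = 0.999). Cebpb, a factor of monocytes that inflammatory signals induce, had 28.1 and 22.1 CPM in WT against 19.4 and 9.05 CPM in Zbp1-KO. Its log2 fold change was −0.80 ± 0.34 (SE), and the edgeR p was 0.0349 before and 0.999 after adjustment. Without Zbp1-KO 2 the value was −0.38 (unadjusted edgeR p of 0.217), without WT 1 −0.63 (0.161) and without Zbp1-KO 1 −1.48. Nr4a1, which patrolling monocytes need and which many cell types induce within minutes of a stimulus, had 77.3 and 24.9 CPM in WT against 14.6 and 3.23 CPM in Zbp1-KO. Its log2 fold change was −2.48 ± 0.58 (SE), and −1.47 without WT 1 and −3.99 without Zbp1-KO 1. It was not called by the quasi-likelihood test (edgeR adjusted p = 0.999), but it was by the exact test of edgeR (adjusted p = 0.0348) and in 5 other alternatives.

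Resident macrophage genes varied widely in level. Of the 22 listed, 18 were tested, and 1 had 0 counts in every library. C1qa, a chain of complement C1q made mainly by macrophages, had 44.4 and 26.8 CPM in WT against 48.7 and 44.6 CPM in Zbp1-KO, with a log2 fold change of 0.39 ± 0.25 (SE). In 5 of the 18 tested genes of this list both Zbp1-KO libraries were higher and in 1 both were lower, against 16.0% and 16.3% of all genes. The 1 lower gene was Aif1, with 9.17 and 7.53 CPM in WT against 5.16 and 7.33 CPM in Zbp1-KO. Its log2 fold change was −0.42 ± 0.42 (SE). Over the list, log2 fold changes ran from −1.11 to 0.88, with 10 genes above 0 and 8 below. The list median was 0.11, and with a library left out it ran from 0.01 (without Zbp1-KO 2) to 0.32 (without WT 1). The 19 genes of phagocytosis and lysosome had a median of 0.01, which was −0.06 without WT 2 and 0.12 without WT 1. Among them, Lcp1, an actin-bundling protein of white blood cells, had 23.7 and 18.8 CPM in WT against 34.8 and 30.2 CPM in Zbp1-KO, and a log2 fold change of 0.61 ± 0.24 (SE). The unadjusted edgeR p of Lcp1 was 0.0238, which became 0.178 without WT 2 and 0.0976 without Zbp1-KO 1, and its adjusted p was 0.999. Of the 16 tested partner genes, Sirpb1a, a receptor of myeloid cells that signals through Tyrobp, had 8 and 3 counts in WT against 36 and 25 in Zbp1-KO. The log2 fold change was 2.54 ± 1.10 (SE), with an unadjusted edgeR p of 0.0407 that became 0.999 on adjustment and lay between 0.0814 and 0.215 with any 1 library left out, at a log2 fold change of 2.03 (without WT 2) to 3.32 (without WT 1). Sirpb1a has close copies between which its reads could be split.

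Several defining markers of dendritic cells were scarce. Of the monocyte genes, 14 were tested, with a median log2 fold change of 0.28, which was −0.06 without Zbp1-KO 1 and 0.69 without Zbp1-KO 2. Their log2 fold changes ran from −1.01 to 1.54, with 10 genes above 0 and 4 below. Ccr2, which brings monocytes out of the bone marrow, had 2.73 and 1.71 CPM in WT against 4.94 and 3.66 CPM in Zbp1-KO, and a log2 fold change of 0.95 ± 0.67 (SE). Fn1, of the same list, went the other way, with 121 and 127 CPM in WT against 52.9 and 118 CPM in Zbp1-KO. Its log2 fold change was −0.54 ± 0.29 (SE). The list of conventional dendritic cells shares Cd8a with that of T cells. Its 16 tested genes had a median of 0.27, which ran from 0.14 (without Zbp1-KO 2) to 0.52 (without WT 2) with a library left out. Among the defining markers of conventional dendritic cells, Flt3, Xcr1 and Cd209a had at most 13 counts in any library, each with 0 counts in at least 1, and were not tested. Clec9a had 26 and 37 counts in WT against 77 and 47 in Zbp1-KO, and Zbtb46, which endothelial cells also express, had 8.12 and 14.7 CPM in WT against 13.1 and 10.9 CPM in Zbp1-KO. Of the markers of plasmacytoid dendritic cells, Ccr9 had 0 counts in 3 of the 4 libraries and Siglech 8 to 23 counts. Cox6a2, of the same list, was the remaining gene that was lower at an unadjusted p under 0.05, and its mean was below 1 CPM.

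**Figure D4:**
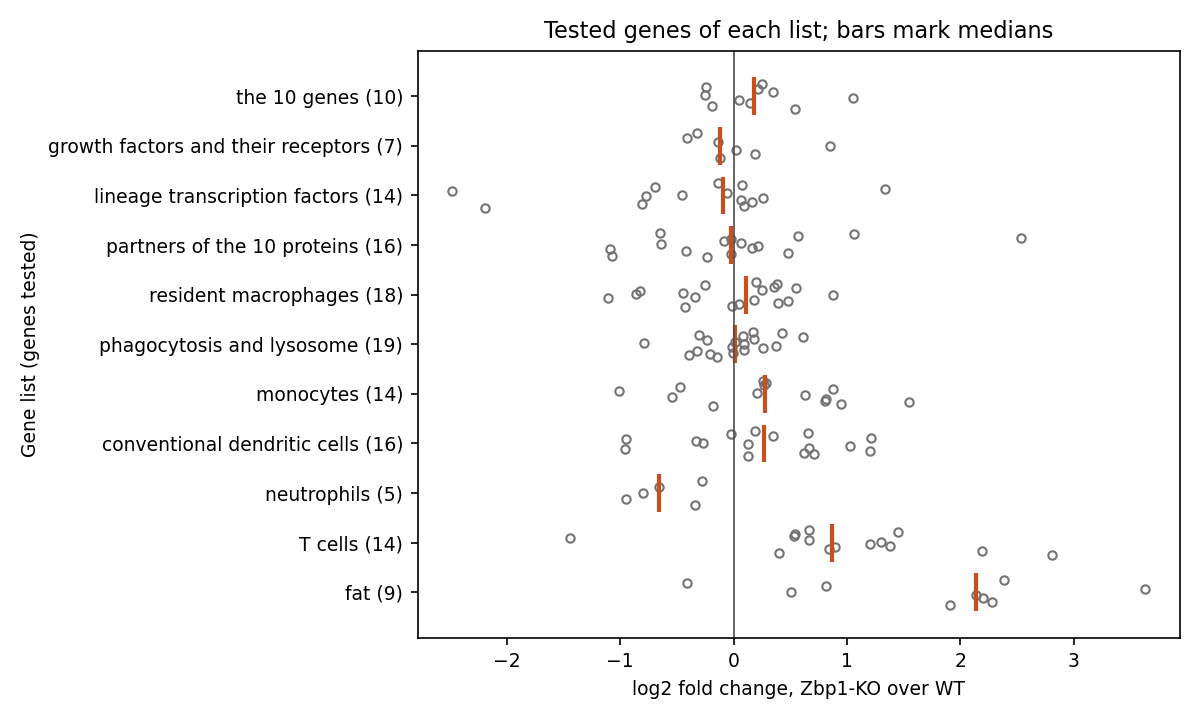
Log2 fold changes of Zbp1-KO over WT for the tested genes (open circles) of the 10 genes, of 7 related lists and of neutrophils, T cells and fat, with bars at the medians and the number of genes tested in brackets. The medians of the 7 related lists lie between −0.12 and 0.28, that of neutrophils at −0.66 and those of T cells and fat at 0.87 and 2.13.

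Markers of T cells and fat had higher summed levels in both Zbp1-KO libraries than in either WT library. So did resident macrophage genes, with 276 and 229 CPM in WT against 283 and 296 CPM in Zbp1-KO. The same held for conventional dendritic cells (110 and 127 against 138 and 137 CPM) and partners (176 and 173 against 189 and 177 CPM). Sums were lower in both Zbp1-KO libraries for transcription factors (455 and 430 against 327 and 342 CPM) and monocytes (215 and 199 against 139 and 195 CPM). None of these sums was tested. T cells can carry Cx3cr1. Of the 14 tested T cell genes 0 were called, 1 (Cd2) was higher at an unadjusted p under 0.05, 5 were higher in both Zbp1-KO libraries and 1 was lower in both, against 16.0% and 16.3% of all genes. The 18 T cell genes summed to 22.6 and 21.9 CPM in WT against 38.5 and 42.5 CPM in Zbp1-KO, although Cd3e had at most 19 counts. Of the 9 tested fat genes 7 were higher in both Zbp1-KO libraries and 0 lower in both, and the 12 genes of that list summed to 95.4 and 129 CPM in WT against 285 and 256 CPM in Zbp1-KO. Cfd, the adipose complement factor D, was the 1 listed gene of other cell types that was called, with 14.4 and 19.8 CPM in WT against 83.7 and 73.3 CPM in Zbp1-KO, a log2 fold change of 2.20 ± 0.23 (SE) and an edgeR adjusted p of 0.00889. The part of T cells and fat in the values of Cx3cr1 and Adgre1 was not tested. Natural killer cells also carry Cx3cr1. The 13 genes of natural killer and mast cells summed to 12.0 and 6.16 CPM in WT against 10.8 and 10.7 CPM in Zbp1-KO, most of it from Kit, the 1 gene of the list that was tested, and 6 of the 13 had 0 counts in all 4 libraries. Among the genes of natural killer cells, Ncr1, Klrb1c and Klra8 were at 0 throughout, Gzmb had 2 and 3 counts in WT against 5 and 4 in Zbp1-KO, Gzma 7 and 1 against 0 and 0, Eomes 1 and 0 against 7 and 0, and Prf1 5 and 1 against 12 and 2. Their part in the values of Cx3cr1 was not tested.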

How the data were processed

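The authors prepared polyadenylated kidney RNA with the TruSeq RNA Library Preparation Kit v2, sequenced read pairs, trimmed them with Trimmomatic, aligned them with hisat2 (genome build mm10) and used featureCounts to count pairs that mapped to 1 place. The deposited values are raw whole-number counts per Ensembl gene. Versions, annotation release and the strand setting of the counting were not given in the sources used here. Symbols, positions and exon lengths (over all annotated exons) came from GENCODE M21 on GRCm38, where 54495 of 54532 gene IDs were found. Per the labels, titles gave genotype and replicate number.

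Genes passing filterByExpr (minimum count 10, minimum total 15) were normalised by TMM and tested with the two-sided quasi-likelihood F test of edgeR 4.0.16 (R 4.3.3), with genotype as the only term and Benjamini-Hochberg adjustment over all 14908 genes; a gene was called at an adjusted p under 0.05. Log2 fold changes used a prior count of 0.125, their SE was the absolute value over the square root of F, and 95% intervals used the degrees of freedom of the test. P-values measure only the spread between these libraries, 2 per genotype, which may be technical in part. The quasi-likelihood, exact, likelihood ratio, DESeq2 and voom tests were checked on simulated data.

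Alternatives were RLE and upper quartile factors, no filter beyond 1 count, each library left out, the replicate number as a block, mitochondrially encoded genes left out, the exact and likelihood ratio tests of edgeR, DESeq2 1.42.0 and voom in limma 3.58.1. Named genes were the 10, fixed partners of them, and list genes with an unadjusted p under 0.05 and a mean of at least 1 CPM. Aif1, Fn1, Cd2, Cd8a, Cfd, Clec9a, Cox6a2, Kit, Hmgxb3, Gm33858, Gm49368 and other marker genes at or near 0 were named after their values were seen. The 10 genes and the lists were chosen with earlier results of these data known.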

Additional observations from a re-analysis of the deposited data

How the results depend on the processing

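Calls among the 10 genes stayed at 0 under all 13 alternatives run, and of their 130 log2 fold changes under alternatives 120 kept their sign. All 10 sign changes came from leaving out a library. The log2 fold change then ran from −0.20 (without WT 2) to 0.34 for Csf1r, −0.13 (without WT 2) to 0.64 for Lyz2, −0.50 to 0.19 (without WT 2) for Cd14, −0.75 to 0.55 (without WT 1) for Mrc1, −0.85 to 0.62 (without WT 1; 0.17 without Zbp1-KO 1) for Itgam, −0.49 (without Zbp1-KO 1) to 0.56 for Cd68, −0.19 (without Zbp1-KO 2) to 0.74 for Itgax and −0.11 (without Zbp1-KO 1; −0.09 without WT 2) to 0.67 for Tyrobp. The median of the 10 genes ran from −0.0067 (without WT 2) to 0.63 (without WT 1) with a library left out, and from 0.17 to 0.18 otherwise. With a library left out, which changes the genes tested slightly, list medians ran from −0.17 to 0.05 for growth factors, −0.12 to 0.06 for partners and −0.02 to 0.47 for plasmacytoid dendritic cells, and that of partners was −0.10 with the block.

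The number of genes called among all genes, 2 in the edgeR quasi-likelihood test, was 41 with no filter beyond 1 count, 11 with the replicate block, 4 without mitochondrially encoded genes, 14 with the exact test, 26 with the likelihood ratio test, 9 with DESeq2, 7 with limma-voom and 0 to 37 with a library left out. Among the related lists, 0 genes were called in the quasi-likelihood test and 1 with no filter, with the block and with the exact and likelihood ratio tests, in each case Nr4a1; with a library left out the count was 0 to 1, namely Nr4a1 without WT 2 or Zbp1-KO 1 and Fn1 without Zbp1-KO 2. With no filter more genes were tested; otherwise the cause was not tested. In these fits a genotype left with 1 library is assumed to vary like the other.

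Across genes, the deviations of libraries with 1 number correlated at 0.00399. This value cannot show whether same-numbered libraries shared a batch or a litter, and the labels do not say. The replicate block left the 10 genes uncalled. Counting error alone was wide for genes of under 100 counts a library, such as Adgre1 and Itgax, and Csf1r and Lyz2, with more counts, were not called either.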
